A study of Mus musculus with 10 samples.

Results

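Stra6 and 8 other genes of retinoid uptake, retinoic acid synthesis, binding, breakdown and sensing were followed in 10 CT26 tumors. The 9 genes, of 36009 in the count table, were taken by gene name. They were chosen from responder against non-responder differences of these same tumors, so their values in that comparison are a description, no p is given for them, and their calls are only counted beside the share of all genes called. CT26 is a mouse colorectal carcinoma line, grown here as a subcutaneous tumor in adult, female, wild-type BALB/c mice. All tumors were untreated when the tissue was taken. Most of the tumor was then removed by surgery, and the piece removed was sequenced as polyA RNA, before a hydrogel that releases poly(I:C), a synthetic double-stranded RNA, was laid on what remained. The 6 responders were mice with complete regression and the 4 non-responders were mice with no delay in growth.

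Retinol (vitamin A) travels in blood bound to retinol binding protein, enters some cells through the membrane receptor STRA6, and is oxidized first to retinal and then, irreversibly, to retinoic acid by ALDH1A enzymes. Cellular retinoic acid binding proteins carry the acid to nuclear receptors or to CYP26 enzymes, which break it down. Retinoic acid made by myeloid and stromal cells is known to shape T cell homing, regulatory T cells and monocyte differentiation.

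The libraries held between 23374649 and 38042544 estimated counts. Levels are given as CPM, the usual unit of counts scaled to library size, with library sizes corrected by TMM. The defining epithelial genes Epcam, Krt8, Krt18 and Krt19 were under 1 CPM in every tumor, so the epithelial genes that bear on the label of colorectal carcinoma were mainly Krt20, at 12.7 to 75.2 CPM, and Cdh1, at 2.63 to 7.02 CPM.

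Retinoic acid receptors bind paired half-sites, searched here on either strand as AGGTCA, as AGTTCA, as GGGTCA and as GGTTCA, and a pair in the same direction with 5 bases between them (DR5) is the element known from Rarb. RefSeq promoter windows on GRCm38.p6, from 250 bases before to 50 after a start site, were at hand for 7 of the 9 genes, 12 windows in all. Aldh1a3 and Crabp2 had none. A DR5 was found in 1 of the 12 windows, that of Rarb, and in 32 of all 32817 windows (0.0975%). A pair with 1 or 2 bases between (DR1 or DR2) was found in 0 of the 12, against 0.222% and 0.268% of all windows. A single half-site was in 4 of the 12 and in 43.7% of all windows. The windows of Rarb (chr14:16575427-16575726, minus strand), Stra6 (chr9:58133825-58134124, plus strand) and Aldh1a1 (chr19:20601718-20602017, plus strand) are shown because these are the receptor gene that holds the element and the genes whose levels separated the tumors. Stra6 had 4 windows and Aldh1a1 had 2, and the window shown for each was picked as the only one with a half-site. They read 5′ to 3′, with half-sites, and the 5 bases inside the DR5, in capitals:
Rarb: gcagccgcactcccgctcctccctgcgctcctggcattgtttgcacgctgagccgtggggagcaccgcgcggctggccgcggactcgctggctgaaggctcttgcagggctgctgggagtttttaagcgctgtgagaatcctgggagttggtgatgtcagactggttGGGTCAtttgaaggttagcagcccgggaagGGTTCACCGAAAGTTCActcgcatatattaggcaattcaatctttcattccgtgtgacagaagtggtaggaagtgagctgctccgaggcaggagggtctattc
Stra6: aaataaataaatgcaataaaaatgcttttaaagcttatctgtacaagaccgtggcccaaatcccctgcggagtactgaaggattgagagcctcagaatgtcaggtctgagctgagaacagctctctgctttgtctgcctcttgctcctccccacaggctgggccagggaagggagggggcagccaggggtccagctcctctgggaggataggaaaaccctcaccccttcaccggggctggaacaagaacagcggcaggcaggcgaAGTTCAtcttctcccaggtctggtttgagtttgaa
Aldh1a1: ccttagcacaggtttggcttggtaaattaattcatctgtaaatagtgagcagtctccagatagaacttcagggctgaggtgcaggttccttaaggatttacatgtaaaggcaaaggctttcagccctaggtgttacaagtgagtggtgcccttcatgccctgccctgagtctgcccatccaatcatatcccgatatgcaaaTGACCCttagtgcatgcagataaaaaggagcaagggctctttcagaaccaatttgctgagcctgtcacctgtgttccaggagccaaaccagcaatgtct

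Stra6 was lower in all 6 responders than in any non-responder, and Aldh1a1 was higher in all 6 than in any non-responder. The other 6 genes that passed the filter on low counts had overlapping groups, and Rarb was too low to pass it. Across the 16041 genes tested, edgeR called 4.71% higher in responders and 3.35% lower at an adjusted p under 0.05. Among the 8 members tested, 1 was called higher (Aldh1a1) and 1 lower (Stra6). The groups did not overlap for 5.84% of genes in the higher direction and 4.55% in the lower, and for 1 member in each direction. Nothing is read from these member counts, because the genes were chosen with the contrast known. The median log2 fold change was 0.13 over the 8 members and -0.01 over all genes tested.

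Stra6 encodes the receptor through which cells take up retinol from its carrier. The gene (ENSMUSG00000032327) lies on the plus strand of chromosome 9, 58063788 to 58153996 (GRCm38). Responders 1 to 6 were at 0.299, 0.343, 0.447, 0.330, 0.336 and 0.287 CPM, and non-responders 1 to 4 at 2.02, 0.746, 1.30 and 2.05 CPM. The responders lay close together and the non-responders spread widely, with non-responder 2 the nearest to the responders. Responders averaged 0.340 ± 0.0566 CPM (SD, n = 6) and non-responders 1.53 ± 0.626 CPM (SD, n = 4). The log2 fold change, responder over non-responder, was -2.17 (SE 0.28). These levels rest on few reads, with 9 to 13 counts in a responder and 20 to 68 in a non-responder. The exact Poisson 95% interval, which covers counting error only, ran from 0.238 to 0.764 CPM in responder 3 and from 0.456 to 1.152 CPM in non-responder 2, so these neighbors overlap at this depth. Stra6 passed the filter through the non-responders, since 4 of 4 non-responders but 3 of 6 responders reached its minimum. Without non-responder 4, the highest tumor, the log2 fold change of Stra6 was -1.98. Fewer cells of a type and less RNA per cell cannot be told apart in bulk tissue. Ccdc33, which overlaps Stra6 on the other strand with 0 shared exonic bases, held only 5 to 9 counts per tumor.

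Rbp4 encodes the blood carrier that delivers retinol to STRA6. The gene (ENSMUSG00000024990) lies on the minus strand of chromosome 19, 38116629 to 38125281. It was at 1.33, 0.718, 0.894, 0.693, 1.06 and 1.07 CPM in responders 1 to 6 and at 1.37, 0.187, 0.823 and 0.693 CPM in non-responders 1 to 4. The groups overlapped over almost the whole range, and non-responder 2 held the lowest value. The log2 fold change was 0.34 (SE 0.39). Of the 4 hepatocyte genes listed, Ttr was at 0 counts and Alb under 1 CPM in every tumor. The other genes of that list were higher, Apoa1 at 1.43 to 2.89 CPM and Serpina1a at 0.149 to 1.17 CPM.

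Aldh1a1, Aldh1a2 and Aldh1a3 encode the retinal dehydrogenases that carry out the last step of retinoic acid synthesis, and only Aldh1a1 separated the groups. Aldh1a1 (ENSMUSG00000053279) lies on the plus strand of chromosome 19, 20492715 to 20643465. It was at 3.73, 3.65, 4.81, 3.93, 6.96 and 4.80 CPM in responders 1 to 6 and at 0.807, 3.06, 1.34 and 1.24 CPM in non-responders 1 to 4. Responder 5 was the highest, and non-responder 2 again lay nearest to the other group. Responders averaged 4.65 ± 1.25 CPM (SD, n = 6) and non-responders 1.61 ± 0.993 CPM (SD, n = 4), and the log2 fold change was 1.53 (SE 0.33). On leaving out 1 tumor at a time the log2 fold change of Aldh1a1 ran from 1.32 without non-responder 1 to 2.04 without non-responder 2. Aldh1a7, a close paralog on the same chromosome whose reads can be split with it, held 1 to 11.1 counts per tumor and was too low to be tested.

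Aldh1a2 (ENSMUSG00000013584; chromosome 9, 71215789 to 71296243, plus strand) is the enzyme best known from dendritic cells, stroma and the embryo. It ranged from 0.313 to 0.936 CPM in responders and from 0.149 to 0.724 CPM in non-responders, and its log2 fold change was 0.38 (SE 0.40). Aldh1a3 (ENSMUSG00000015134; chromosome 7, 66390890 to 66427517, minus strand) ranged from 0.835 to 2.33 CPM in responders and from 0.746 to 2.18 CPM in non-responders, with a log2 fold change of -0.04 (SE 0.33). Neither enzyme separated the groups.

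Per kilobase of longest annotated transcript, the summed level of the 3 enzymes was 2.65 ± 0.4995 CPM per kb (SD, n = 6; 2.25 to 3.61) over the responders and 1.31 ± 0.196 (SD, n = 4; 1.16 to 1.58) over the non-responders. The groups did not overlap in this sum. Aldh1a1 made up 73.9% ± 8.54 (SD, n = 6) of it in responders, against 49.9% ± 22.6 (SD, n = 4) in non-responders. Its share overlapped between the groups, because it was 82.1% in non-responder 2 and 29.2% to 45.2% in the other non-responders. In non-responder 1 the leading enzyme was Aldh1a3, with 54.0% of the sum. These values depend on the length used. With the length of all exons joined, a choice made after seeing the data, the sum was 1.51 ± 0.254 CPM per kb (SD, n = 6) against 0.842 ± 0.0340 (SD, n = 4), still without overlap, and the share of Aldh1a1 was 62.0% ± 10.43 (SD, n = 6) against 38.7% ± 23.6 (SD, n = 4).

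**Figure D1:**
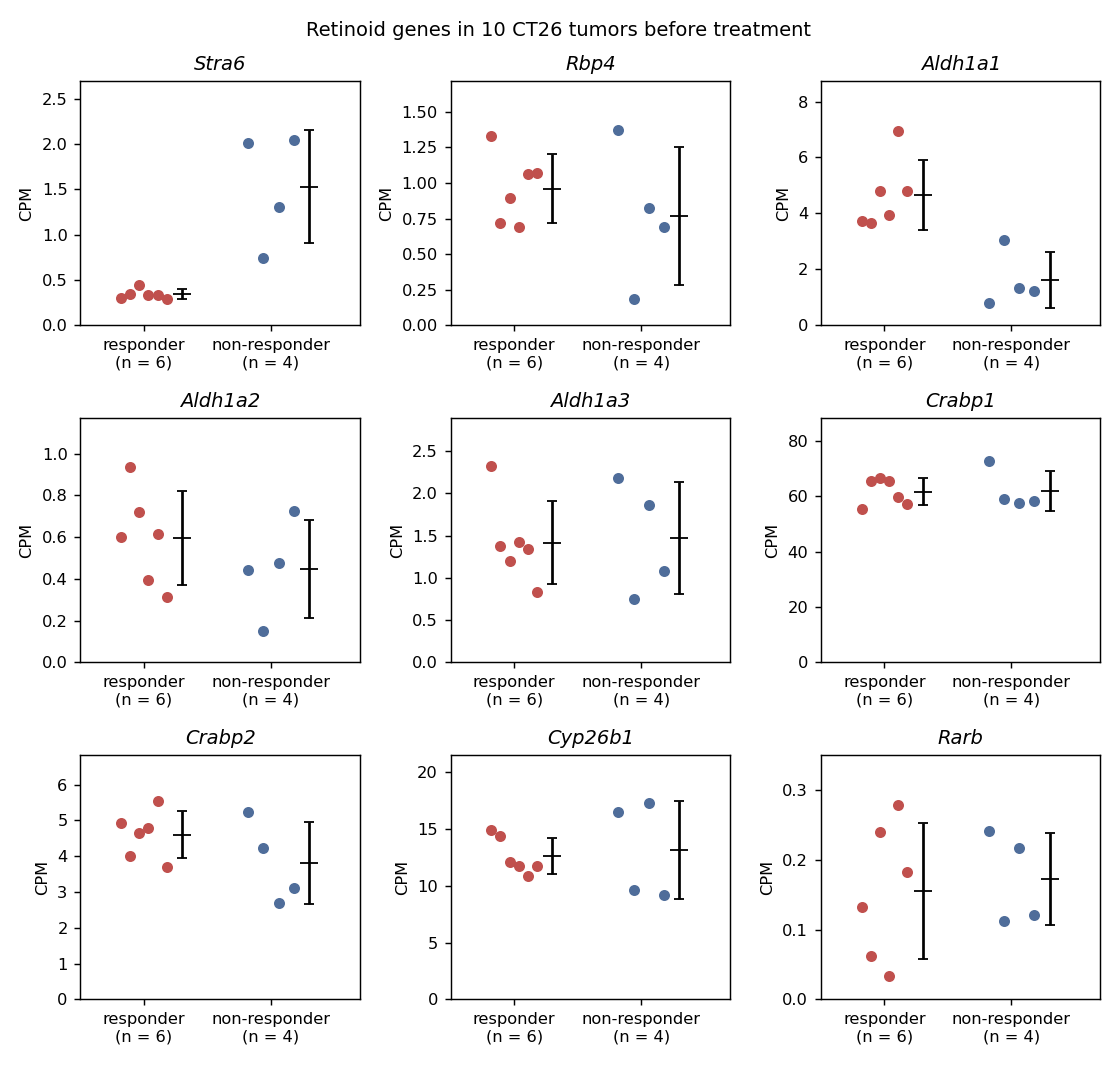
Level of each of the 9 genes in CPM, on a linear axis that starts at 0 in every panel, with 1 point per tumor, responders beside non-responders, and bars for the mean and SD. The groups are apart for Stra6 (0.287 to 0.447 against 0.746 to 2.05 CPM) and Aldh1a1 (3.65 to 6.96 against 0.807 to 3.06 CPM) and overlap in the other panels.

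Crabp1 and Crabp2 encode the cytosolic proteins that bind retinoic acid. CRABP2 is known to hand it to the receptors and CRABP1 to keep it in the cytosol. Crabp1 (ENSMUSG00000032291; chromosome 9, 54764748 to 54773110, plus strand) had the highest level per kilobase of the 9 genes. It stood at 55.5, 65.5, 66.7, 65.6, 59.8 and 57.2 CPM in responders 1 to 6 and at 72.7, 59.2, 57.5 and 58.5 CPM in non-responders 1 to 4. Non-responder 1 was the highest, and the other 9 tumors lay between 55.5 and 66.7 CPM. The means of 61.7 ± 4.85 CPM (SD, n = 6) and 62.0 ± 7.18 CPM (SD, n = 4) gave a log2 fold change of -0.01 with an SE of 0.08, the smallest SE among the members, from 1328 to 2192 counts per tumor.

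Crabp2 (ENSMUSG00000004885; chromosome 3, 87948666 to 87953376, plus strand) was at 4.92, 3.99, 4.64, 4.78, 5.54 and 3.70 CPM in responders 1 to 6 and at 5.25, 4.22, 2.69 and 3.10 CPM in non-responders 1 to 4. Non-responders 3 and 4 lay under every responder, and non-responders 1 and 2 lay within the responder range. The log2 fold change was 0.27 (SE 0.19). Per kilobase, Crabp1 was 15.9 ± 2.60 times the level of Crabp2 (SD, n = 6) among responders and 19.8 ± 4.32 times (SD, n = 4) among non-responders, with overlapping groups.

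Cyp26b1 encodes the enzyme that clears retinoic acid in many tissues outside the liver. The gene (ENSMUSG00000063415) lies on the minus strand of chromosome 6, 84571414 to 84593908. It was at 14.9, 14.4, 12.1, 11.7, 10.9 and 11.7 CPM in responders 1 to 6 and at 16.5, 9.63, 17.3 and 9.22 CPM in non-responders 1 to 4. The non-responders fell into a high pair and a low pair on either side of all 6 responders. The group means were 12.6 ± 1.62 CPM (SD, n = 6) against 13.2 ± 4.33 CPM (SD, n = 4), and the log2 fold change was -0.05 (SE 0.18).

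Rarb encodes retinoic acid receptor beta, whose promoter holds the DR5 shown above and which is a textbook target of its own ligand. The gene (ENSMUSG00000017491) lies on the minus strand of chromosome 14, 16430839 to 16819156. It held 1 to 10.1 estimated counts in a responder and 3 to 6.04 in a non-responder, or 0.0330 to 0.280 against 0.112 to 0.242 CPM, and was not tested. Responders 2 and 4 lay under the 3 counts that a count of 0 allows. Without the filter the log2 fold change was -0.11 (SE 0.54), an SE wide enough to hide a difference in either direction at this depth. Rarb shares 1793 exonic bases with Top2b on the opposite strand, which held 3391 to 5971 counts per tumor, and the strand setting of the counting is not given in the sources used here.

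Per kilobase of longest transcript and over all 10 tumors, the mean level was 77.1 CPM per kb for Crabp1, 4.60 for Crabp2, 2.86 for Cyp26b1, 1.46 for Aldh1a1, 0.762 for Rbp4, 0.417 for Aldh1a3, 0.265 for Stra6, 0.237 for Aldh1a2 and 0.0522 for Rarb. Only the step from Crabp1, at 69.2 CPM per kb or more, to Crabp2, at 5.95 or less, was free of overlap between tumors, and every other neighbor in this order overlapped. The rank of Stra6 was not the same in both groups, while Aldh1a1 came after Cyp26b1 and before Rbp4 in each. Stra6 was at 0.111 ± 0.0184 CPM per kb (SD, n = 6) in responders, under Aldh1a2 at 0.264, and at 0.497 ± 0.203 (SD, n = 4) in non-responders, above Aldh1a3 at 0.426. Aldh1a1 was at 1.97 ± 0.529 CPM per kb in responders and 0.683 ± 0.421 in non-responders, next to Rbp4 at 0.662 in the latter. With the length of all exons joined in place of the longest transcript, the mean over all tumors was 0.140 CPM per kb for Stra6, under Aldh1a2, 0.695 for Aldh1a1, 3.24 for Crabp2 and 0.0308 for Rarb. In non-responders the order of neighbors then turned, with Stra6 at 0.262 under Aldh1a3 at 0.318, and Aldh1a1 at 0.326 under Rbp4 at 0.572.

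**Figure D2:**
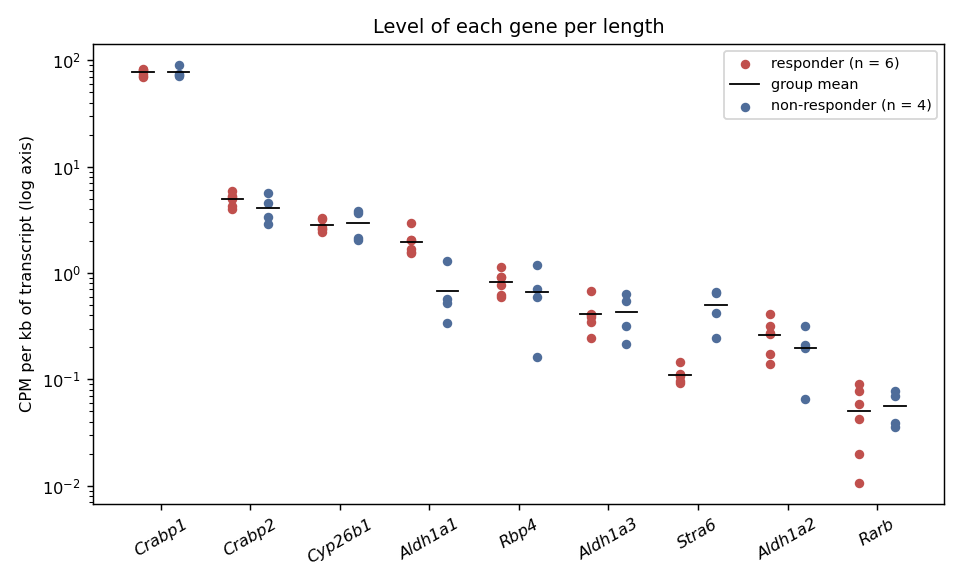
Level of each gene in CPM per kilobase of its longest annotated transcript, on a log axis, with 1 point per tumor and the genes in the order of their means. Crabp1 lies above 69 CPM per kb in every tumor, and the remaining genes form a ladder with overlapping neighbors down to Rarb.

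Another 51 genes of the pathway were listed for their known roles and not for how they moved, though with earlier results of these data known. Of these, 42 passed the filter. By edgeR's quasi-likelihood test with Benjamini-Hochberg adjustment over all 16041 genes, 3 were higher in responders, 1 was lower and 38 did not pass. Called in either direction were 9.52% of the 42, where 4.71% of all genes were called higher and 3.35% lower. The estimates were split evenly, 21 above 0 and 21 below, with a median log2 fold change of -0.00, against -0.01 over all genes. By role, 1 of 10 genes of uptake, binding and storage was higher, 1 of 16 genes of retinol and retinal interconversion was lower, and 2 of 7 genes known to be induced by retinoic acid were higher. Of 7 receptors and corepressors 0 were called by edgeR and 0 by DESeq2, with 1 (Rxrb) at an unadjusted p under 0.05 by each. Of 2 genes of other synthesis and delivery, Aldh8a1 and Fabp5, 0 were called or reached an unadjusted p under 0.05 by either tool. Over all 16041 genes, 4666 had an unadjusted p under 0.05 by edgeR and 4693 by DESeq2.

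Lpl, the lipoprotein lipase that releases fatty acids and retinyl esters from lipoproteins, had the largest log2 fold change among the 42 tested. It ranged from 47.3 to 89.1 CPM in responders and from 11.5 to 37.3 CPM in non-responders, with no overlap. The group means were 61.9 ± 15.7 CPM (SD, n = 6) against 22.1 ± 11.8 CPM (SD, n = 4), and the log2 fold change was 1.50 (SE 0.31), with an adjusted p of 0.0285 by edgeR. Without responder 2 or 3 or non-responder 1 or 4, each in turn, it did not pass, with an adjusted p of at most 0.0782.

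Rdh10, the retinol dehydrogenase that makes retinal, the substrate of the ALDH1A enzymes, was the 1 listed gene called lower. All 6 responders, at 18.1 to 22.0 CPM, lay under all 4 non-responders, at 24.0 to 38.5 CPM. The log2 fold change was -0.49 (SE 0.12), with an adjusted p of 0.0403 by edgeR. The lower genes that came next did not pass. Rbp2, a cellular retinol binding protein, was at -0.31 on the log2 scale (SE 0.10, adjusted p = 0.0667 by edgeR) and Rdh11, another retinol dehydrogenase, at -0.20 (SE 0.06, adjusted p = 0.0766 by edgeR). The groups of Rbp2 and of Adh5 did not overlap either. Of the 42 genes tested, 3 did not overlap in the higher direction and 3 in the lower, against 5.84% and 4.55% of all genes.

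Among genes that retinoic acid is known to induce, Rarres2, which encodes the chemoattractant chemerin, averaged 137.9 ± 23.01 CPM (SD, n = 6) over responders and 95.7 ± 14.7 CPM (SD, n = 4) over non-responders, with overlapping groups (log2 fold change 0.53, SE 0.13, adjusted p = 0.0387 by edgeR). Cd38, an NAD-consuming surface enzyme of immune cells, was at 66.8 ± 10.6 CPM (SD, n = 6) against 45.7 ± 10.2 CPM (SD, n = 4), with no overlap (log2 fold change 0.55, SE 0.15, adjusted p = 0.0499 by edgeR). The other 5 genes of this role did not pass, and the median log2 fold change of the 7 was 0.35. Cd38 also did not pass with libraries scaled by their totals only (adjusted p = 0.0503) or by limma-voom (adjusted p = 0.0505). Each of the calls of Rdh10, Rarres2 and Cd38 was lost on leaving out any of 7 or 8 of the 10 tumors singly, with adjusted p-values up to 0.0856 for Rdh10, 0.101 for Rarres2 and 0.114 for Cd38.

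The receptor genes did not pass the test. Rara averaged 46.9 ± 4.45 CPM (SD, n = 6) over responders and 45.9 ± 5.40 CPM (SD, n = 4) over non-responders, and the log2 fold changes of the 7 receptors and corepressors ran from -0.13 to 0.08. Rarg was at 95.01 to 123.5 CPM and Rxra at 111.6 to 132.5 CPM over the 10 tumors. Over the 51 listed genes, 9 did not pass the filter, and Ttr and Rdh7 were among these at 0 counts in every tumor.

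**Figure D3:**
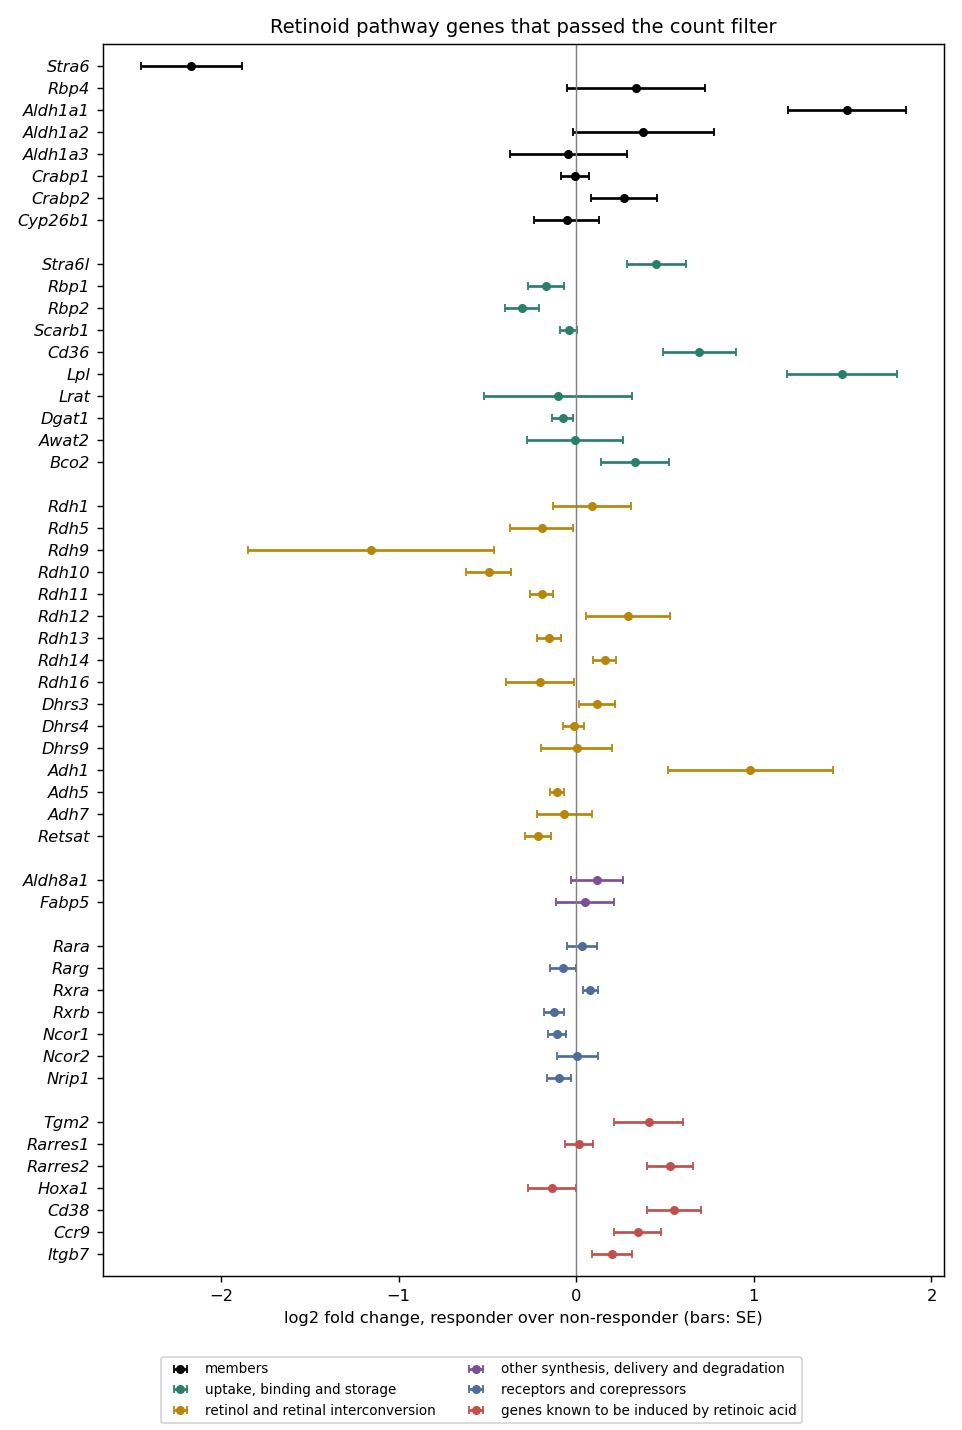
Log2 fold change, responder over non-responder, of the 8 members and 42 listed pathway genes that passed the filter, grouped by role, with bars for the SE. Stra6 (-2.17) lies farthest to the left, Aldh1a1 (1.53) and Lpl (1.50) farthest to the right, and the receptors lie close to 0.

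Several marker lists for other cells differed between the groups in the direction of Aldh1a1 or of Stra6, and their values are given beside these differences. The summed CPM of 8 macrophage genes was 4244 to 5842 in responders and 3056 to 3860 in non-responders, without overlap, and 5 of the 8 were called higher. The adipocyte sum was 37.7 to 107 CPM against 25.9 to 45.6 CPM, above every non-responder in 5 of 6 responders, and all 7 adipocyte genes tested had estimates above 0, with 1 called. Lep, a defining adipocyte gene, was under 1 CPM in every tumor. Lpl is known from adipocytes, muscle and macrophages, and the skeletal muscle sum was 349 to 1137 CPM in responders and 310 to 404 CPM in non-responders. Lymphoid and mast cell sums were also above every non-responder in 5 of 6 responders. The T cell sum was 108 to 247 against 67.6 to 124 CPM. The NK cell sum was 11.6 to 31.5 against 5.53 to 14.1 CPM, and the mast cell sum 46.6 to 157 against 24.7 to 54.9 CPM. Of the genes tested, 0 of 5 T cell, 0 of 3 NK cell and 1 of 5 mast cell genes were called higher. Over all genes tested, 4.71% were called higher. Responder 5 had the highest and non-responder 1 the lowest Aldh1a1, and these tumors were likewise highest and lowest in the macrophage, adipocyte, T cell, NK cell, mast cell and skeletal muscle sums.

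In the direction of Stra6, the summed mesothelial genes were lower in every responder, at 80.2 to 103 CPM against 105 to 133 CPM, nearly all of it Msln, while Muc16 was at 0 and Upk3b and Lrrn4 were under 1 CPM in every tumor. The summed epithelial genes were 17.1 to 41.6 CPM in responders and 38.9 to 83.0 CPM in non-responders. The fibroblast sum overlapped, at 4178 to 4881 CPM against 3657 to 5950 CPM, as did the dendritic cell sum, at 223 to 296 CPM against 242 to 283 CPM. Most of the dendritic cell sum was Fscn1, at 172 to 224 CPM over the tumors. Of its 8 genes 1 was called higher, and 3 of the 8 had estimates above 0. Xcr1 did not overlap, at 4.22 to 8.30 CPM in responders and 1.69 to 3.21 CPM in non-responders. With an adipocyte marker score as a covariate, the log2 fold change was -1.83 (SE 0.45) for Stra6 and 0.75 (SE 0.35) for Aldh1a1. That fit called no gene of the table by edgeR, while 1280 had an unadjusted p under 0.05. The adipocyte sum itself lay above every non-responder in 5 of 6 responders, so the fit cannot fully tell it from response. With a fibroblast marker score instead, Stra6 was at -2.13 and Aldh1a1 at 1.63. Both were among the genes called, which were 790 higher and 515 lower of all 16041 tested. Whether adipocytes, fibroblasts or the cells of any other marker list have a part in these differences was not tested.

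**Figure D4:**
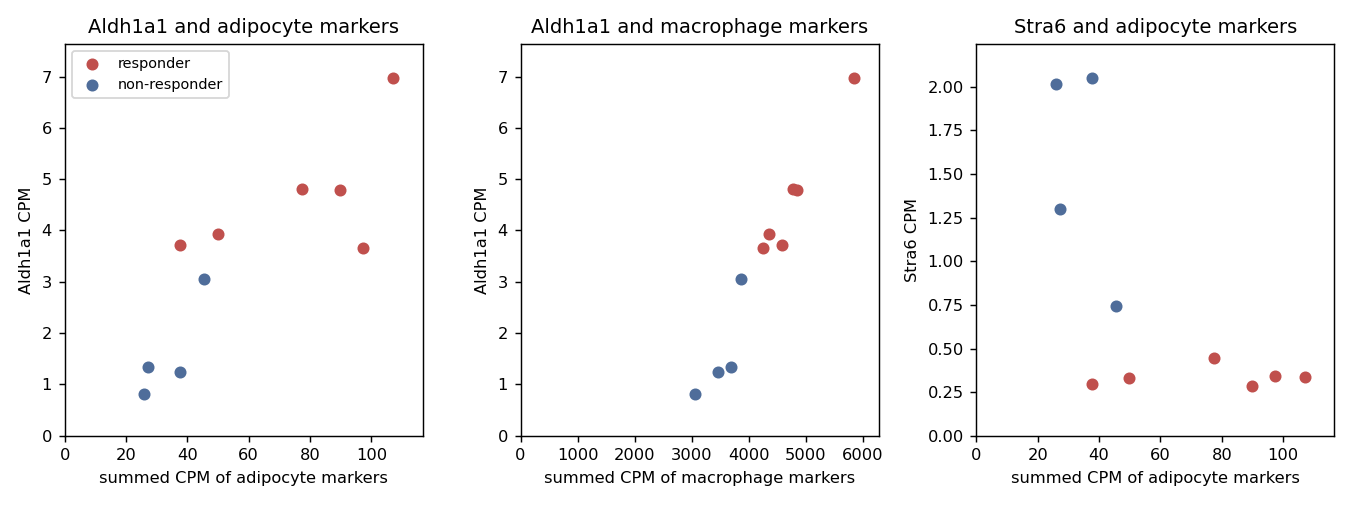
Level in CPM of Aldh1a1 against the summed CPM of adipocyte and of macrophage markers, and of Stra6 against the adipocyte sum, 1 point per tumor and colored by response. Aldh1a1 and the macrophage sum (4244 to 5842 CPM in responders, 3056 to 3860 in non-responders) both part the groups, while 1 of 6 responders lies within the non-responder range of the adipocyte sum.

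Among the genes whose log2 CPM was most like that of Stra6 over the 10 tumors were Jup (Pearson r = 0.97), Castor2 (0.97), Serpine2 (0.96) and Rps27l (0.96). These 4 were lower in responders, Serpine2, a secreted protease inhibitor, the most, at 5.86 ± 1.36 CPM (SD, n = 6) against 14.95 ± 4.62 CPM (SD, n = 4). Within the 6 responders alone, r with Stra6 ran from -0.64 for Castor2 to 0.64 for Serpine2. Aldh1a1 was most like Nlrc4, an inflammasome gene of myeloid cells (r = 0.98 over 10 tumors and 0.94 in the 6 responders), and Pcmtd1 (0.98 and 0.75). Stra6 and Aldh1a1 had r = -0.93 over 10 tumors and 0.15 within the responders. The value over 10 tumors is largely set by the choice of genes, since these part the groups in opposite directions. The genes named as most alike are the highest r of a search over all tested genes of at least 1 CPM. High values with Stra6 and Aldh1a1 are therefore found among genes that differ between the groups. These coefficients share the same libraries and depth and describe these tumors only.

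For the members without a group difference, the nearest genes were Stk10 and Col14a1 for Rbp4 (r = 0.97 and 0.96), Psmd3 and Igfbp7 for Aldh1a2 (0.91 and 0.91), Bpgm and Hba-a1 for Aldh1a3 (0.91 and 0.91), Disp1 and Dda1 for Crabp1 (0.95 and 0.95), Xk and Cd81 for Crabp2 (0.89 and 0.89), and Notch2 and Ednrb for Cyp26b1 (0.95 and 0.94). Among the members themselves, Aldh1a3 and Cyp26b1 varied together, with r = 0.80 over 10 tumors and 0.63 within the responders.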

How the data were processed

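RNA from 10 CT26 tumors, 6 responders and 4 non-responders by the response in the labels, was analyzed. The authors estimated transcript abundance with Kallisto on mm10 (GRCm38) and summed it to genes with tximport. The deposited values are estimated counts, not scaled to depth (45.1% fractional). The annotation release, tximport scaling and strand setting are not given in the sources used here. Unnamed rows held 1.04% to 1.23% of the counts of a tumor and stayed in library sizes and tests.

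Counts were rounded, and edgeR 4.0.16 under R 4.3.3 was used. filterByExpr (minimum count 10, minimum total count 15) kept 16041 genes, TMM scaled the libraries, and p-values of the two-sided quasi-likelihood test were adjusted by Benjamini-Hochberg (threshold 0.05). log2 CPM used a prior count of 2. SE is the log2 fold change over the square root of F. Alternatives used DESeq2 1.42.0 and limma 3.58.1 (voom). Each tumor is a separate library with no batch label, so p-values measure the spread between these tumors.

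The members and lists were chosen with earlier results of these data known. Pathway genes were named if called, or as the 3 per direction with the smallest unadjusted p among genes of at least 1 CPM. The 5 genes most like Stra6 (1 of them is not reported here) and the 2 most like each other member were named by Pearson r, and Aldh1a7 as a paralog. Coordinates and lengths come from GENCODE M21 on GRCm38.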

Additional observations from a re-analysis of the deposited data

Results flagged for a closer look

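Of 60 groups of values examined, 5 held a tumor whose gap to its nearest neighbor was large for the range of its group, where chance gives about 3 at 1 in 20. Crabp1 in non-responder 1 was at 6.19 log2 CPM, above the next non-responder at 5.89. The other 4 were marker sums, each on the log2 scale of summed CPM. Non-responder 2 stood highest among non-responders for skin keratinocyte genes at 3.42, with the next at 1.81, and for skeletal muscle genes at 8.66, with the next at 8.33. Non-responder 1 stood highest for nerve and Schwann cell genes at 4.72, though the next was at 4.69. Responder 2 stood lowest among responders for hepatocyte genes at 1.21, with the next at 1.38.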

How the results depend on the processing

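The log2 fold change of Stra6 stayed between -2.39 and -1.83 over 17 alternatives. The number of members called was 2 in the main analysis and 0 with the adipocyte marker score as a covariate. That fit called no gene of the whole table, while 1280 had an unadjusted edgeR p under 0.05. On leaving out 1 tumor at a time 0 to 2 members were called. The 0 came without non-responder 4, where edgeR called no gene of the whole table and 4106 had an unadjusted p under 0.05. Aldh1a1 alone was lost without responder 2, 3 or 5 or non-responder 1 or 3. Over the whole table these fits called 130 genes higher and 114 lower (without responder 2) and 4 and 13 (without responder 3). The numbers were 240 and 172 (without responder 5), 6 and 10 (without non-responder 1) and 212 and 154 (without non-responder 3). With the fibroblast marker score as a covariate 2 members and 4 listed genes were called, where 790 of all 16041 genes were called higher and 515 lower. The number of listed pathway genes called was 4, against 8 with DESeq2, which added Cd36 and Stra6l (higher) and Rbp2 and Rdh11 (lower). It was 0 with the adipocyte score (2 of 42 at an unadjusted edgeR p under 0.05) and 0 to 6 on leaving out 1 tumor. The 0 came without responder 2 or 3 or non-responder 1 or 4, with 12 to 14 at an unadjusted edgeR p under 0.05. In those leave-out fits 3654 to 4128 of all genes had such a p. Over all genes tested, DESeq2 called 1534 higher and 1039 lower, against 756 and 537 in the main analysis. The adipocyte score also moved the log2 fold changes of Aldh1a1 to 0.75 (SE 0.35) and Rbp4 to 1.33 (SE 0.54). It moved those of Aldh1a3 to 1.09 (SE 0.29) and Cyp26b1 to 0.53 (SE 0.21). The adipocyte sum lay above every non-responder in 5 of 6 responders, so this fit cannot fully tell the score from response. The causes of these shifts were not tested. No paired analysis was possible because the labels give every tumor a number of its own. Depth limits Stra6, Rarb and Aldh1a2 most, at 1 to 68 counts per tumor.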

Other observations

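Cyp26a1, the retinoic acid hydroxylase that is itself strongly induced by retinoic acid, was among the listed genes removed by the filter and is named here after its values were seen. It held 8, 11, 7, 11, 14 and 8 counts in the responders, numbered 1 to 6, and 2, 3, 3 and 6 in the non-responders. At 0.209 to 0.391 CPM against 0.0807 to 0.181 CPM, all 6 responders lay above all non-responders, 3 of which held no more than the 3 counts that a count of 0 allows. Without the filter, edgeR gave a log2 fold change of 1.21 (SE 0.37) and an adjusted p of 0.0838, which did not pass. Rxrg, a retinoid X receptor also removed by the filter and also named after its values were seen, held 3 to 19 counts in responders and 1 to 3 in non-responders, with a log2 fold change of 1.599 (SE 0.58) and an adjusted p of 0.143 without the filter.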
